A study of Homo sapiens with 12 samples.

Results

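CCNE2, CDC6, CDT1 and CLSPN are 4 human genes that act at the start of DNA replication, and their transcripts were followed in HEK293 cells given a mimic of the microRNA miR-1825. They are 4 of the 14884 genes that could be named on the array. CCNE2, CDC6 and CDT1 each had 1 transcript cluster, the array's unit that gathers the probes of a gene or transcript, and CLSPN had 2, of which the one with the higher mean over all 12 arrays was used. The 4 had been picked out because earlier results on these same arrays gave them small p-values in a list of G1/S genes, so their own mimic to control differences are described here without a test.

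HEK293 is an established human embryonic kidney line transformed with adenovirus DNA. All cells were transfected with RNA through the HiPerfect reagent. In 1 group of 6 arrays (mimic-1825) this was Syn-hsa-miR-1825, a synthetic copy of miR-1825, and in the other group of 6 (control) it was the AllStars Negative Control siRNA. Both RNAs were used at 5 nM and total RNA was taken 24 h later. No untransfected cells were included, so a change caused by transfection itself would be shared by both groups. The labels do not say if the 6 samples per group were separate cultures, and the p-values reflect no more than the variation among these samples, and that variation may be technical.

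Replication origins are licensed in G1, when the origin recognition complex recruits CDC6 and CDT1, and these load the MCM2 to MCM7 helicase onto DNA. Cyclin E, of which CCNE2 encodes the second form, activates the kinase CDK2 at the G1/S transition, after which licensing is shut off and origins fire. CLSPN encodes claspin, the adaptor through which the kinase ATR activates CHEK1 when replication forks stall, so CCNE2 and CLSPN act beside licensing rather than in it. All 4 genes are well-known targets of the E2F transcription factors, which the RB protein holds in check, and HEK293 cells carry the adenoviral E1A protein, which binds RB. In bulk RNA a change in the share of cells in a cell cycle phase and a change in RNA per cell cannot be told apart.

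The sequence of the transfected agent is shown first, because base pairing through its seed is how a microRNA recognises an mRNA. It is the RefSeq mature sequence (GRCh38.p14, chr20:32237830-32237847, plus strand, 18 bases), with the seed, bases 2 to 8, in capitals.
hsa-miR-1825: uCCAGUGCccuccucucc
Among the 2370 mature microRNA names of the same table, 0 others share this seed. Transcript sequences were not used here, so seed matches in the 4 mRNAs were not looked for.

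The promoters of 3 of the 4 genes are shown because a shared E2F input is the textbook link between them. CDC6, CDT1 and CLSPN matched the RefSeq promoter table. Each stretch runs from 130 bases before to 30 bases after the gene's start, on the gene's strand (GRCh38.p14). For CDC6 it is chr17:40287749-40287908 on the plus strand, for CDT1 chr16:88803659-88803818 on the plus strand, and for CLSPN chr1:35769949-35770108 on the minus strand. Capitals mark E2F-like matches and CCAAT boxes on either strand.
CDC6: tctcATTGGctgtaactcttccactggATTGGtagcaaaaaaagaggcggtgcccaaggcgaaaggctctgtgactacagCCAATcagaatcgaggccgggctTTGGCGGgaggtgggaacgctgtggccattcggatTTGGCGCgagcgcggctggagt
CDT1: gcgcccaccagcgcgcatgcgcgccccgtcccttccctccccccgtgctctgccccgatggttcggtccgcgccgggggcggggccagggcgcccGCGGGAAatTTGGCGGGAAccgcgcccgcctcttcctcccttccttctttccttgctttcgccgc
CLSPN: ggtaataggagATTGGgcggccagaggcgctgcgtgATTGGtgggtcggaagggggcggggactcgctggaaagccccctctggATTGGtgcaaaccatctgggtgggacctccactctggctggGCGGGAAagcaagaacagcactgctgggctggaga
An E2F-like match was any 7-base word on either strand made of TT, then a pair of bases each C or G, then CGC or CGG. The CGG ending was added after the sequences had been seen, so nothing is read from these matches beside the background counts below. A CCAAT box on the other strand reads ATTGG. CDC6 held 2 E2F-like matches, at bases -27 to -21 and 9 to 15 from the start. CDT1 held 3, which lie together between bases -35 and -17, with the last pair overlapping. CLSPN held 2, at bases -5 to 2 and, upstream of the printed stretch, at -146 to -140. CDC6 and CLSPN each had 3 CCAAT boxes and CDT1 had 0. For comparison, 23.7% of the 35116 promoters of 300 bases in the table held at least 1 E2F-like match and 34.6% held a CCAAT box. Of the 71 other measured replication genes with a promoter in the table, 41 held an E2F-like match.

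CDT1, the licensing factor that is destroyed once S phase begins, was the 1 gene of the 4 with a lower mean after the mimic. Its log2 expression value in the controls ran from 9.34 to 9.51 with a median of 9.40, and in the mimic arrays from 9.26 to 9.33 with a median of 9.27. All 6 mimic arrays lay below all 6 controls, with control replicate 2 the highest and control replicate 3 the lowest of the controls. The means were 9.40 ± 0.06 and 9.29 ± 0.03 (SD, n = 6 each), a log2 difference of -0.12 (SE 0.03), or 1.08-fold lower. Over all transcript clusters, 0.414% had every mimic array below every control, and among the named genes of the brightest 25% of clusters 0.482% did. Because CDT1 was chosen on this same contrast, nothing is read from that count. The gap between the groups was narrow: with each array centred on its median the 2 groups overlapped.

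CDC6, the ATPase that works with CDT1 in loading the helicase, had a higher mean after the mimic. Controls ran from 9.61 to 9.79 with a median of 9.74, and mimic arrays from 9.76 to 9.85 with a median of 9.82. The groups overlapped, since mimic replicate 5 lay within the range of the controls while the other 5 mimic arrays lay above it. The means were 9.72 ± 0.08 and 9.82 ± 0.03 (n = 6 each), a log2 difference of 0.10 (SE 0.04), or 1.07-fold. The controls were more spread out than the mimic arrays, with replicates 4 and 6 the lowest, at 9.64 and 9.61.

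CCNE2, the regulatory partner of CDK2, had the largest difference and spread of the 4 clusters used; the second CLSPN cluster, described below, exceeded both. Controls ran from 7.83 to 8.10 with a median of 8.004, and mimic arrays from 7.98 to 8.30 with a median of 8.15. In 4 of 6 mimic arrays the value was above every control, while mimic replicates 4 and 6 lay among the controls. The means were 7.98 ± 0.10 and 8.14 ± 0.12 (n = 6 each), a log2 difference of 0.17 (SE 0.06), or 1.12-fold. Its pooled within-group SD of 0.109 exceeded that of 77.2% of the 6432 named genes in the brightest 25% of clusters. The SDs of CDC6, CDT1 and CLSPN, at 0.0611, 0.0460 and 0.0494, were below the median of 0.0803 in that set.

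CLSPN, the ATR to CHEK1 adaptor, was measured by 2 transcript clusters. In the brighter one controls ran from 9.60 to 9.73 with a median of 9.67, and mimic arrays from 9.75 to 9.84 with a median of 9.77. All 6 mimic arrays lay above all 6 controls, a pattern held by 0.759% of all clusters and by 2.85% of the named genes in the brightest 25%. As for CDT1, nothing is read from this, since CLSPN was chosen on the same contrast. The separation was slight and depended on the scaling, since the groups overlapped both after quantile normalization and with arrays centred on their medians. The means were 9.67 ± 0.06 and 9.78 ± 0.04 (n = 6 each), a log2 difference of 0.11 (SE 0.03), or 1.08-fold. In the dimmer cluster, whose mean of 4.61 was close to the median of 4.48 over all clusters, the controls ran from 4.28 to 4.95 and the mimic arrays from 4.60 to 5.03. The log2 difference there was 0.32 (SE 0.12), in the same direction, and the groups overlapped. Control replicate 3, at 4.95, stood well above the other 5 controls, which ran from 4.28 to 4.44. With the background unknown, no fold change is quoted for the dimmer cluster.

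**Figure D1:**
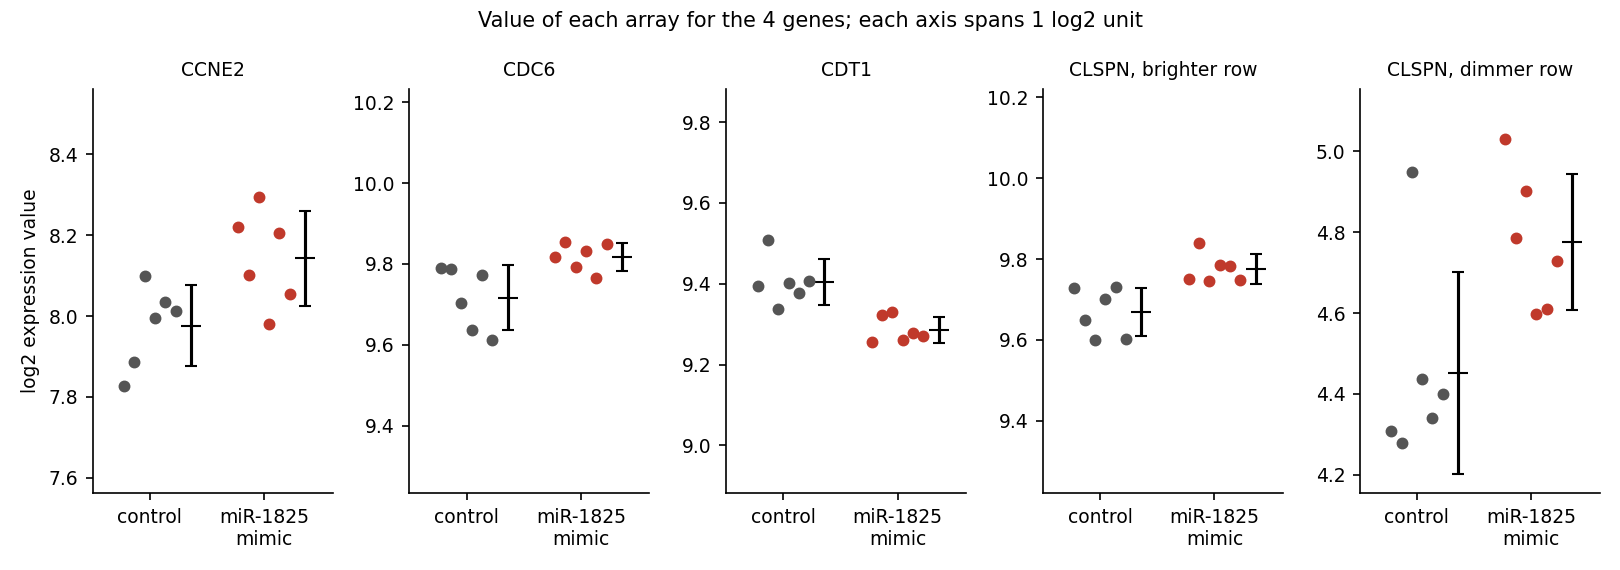
Log2 expression value (vertical axis) of each array for the 4 genes and for the dimmer CLSPN cluster, controls in grey and miR-1825 mimic in red, in replicate order from left to right, with the mean and SD of each group (n = 6) as bars. CDT1 sits lower in all 6 mimic arrays, the brighter CLSPN cluster higher in all 6, and CCNE2 and CDC6 overlap between groups.

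The licensing pair can also be compared within each array, where a scaling that shifts a whole array by a constant cancels. Such a difference shows a shift of a gene relative to the other, not the direction of either. The log2 difference of CDC6 minus CDT1, set to a mean of 0 in the controls, ran from -0.11 to 0.08 in the controls and from 0.15 to 0.27 in the mimic arrays. The groups did not overlap, and the mimic mean was 0.22 ± 0.05 (SD, n = 6), a 1.16-fold shift of CDC6 relative to CDT1. CLSPN minus CDT1 shifted by 0.22 ± 0.04, with mimic arrays from 0.15 to 0.26 and controls from -0.12 to 0.09. After quantile normalization these shifts were 0.21 and 0.21, again without overlap. CCNE2 minus CDT1 shifted by 0.28 ± 0.11, and here 5 of 6 mimic arrays lay above every control. These differences rest on genes chosen for their contrast, with CDT1 opposite in sign to the others, and are given without a test. Nothing is read from the lack of overlap, and its share among other pairs of genes was not counted.

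Other scalings moved each of the 4 differences by less than its spread between replicates. Quantile normalization gave 0.14 for CCNE2, 0.07 for CDC6, 0.08 for CLSPN and -0.13 for CDT1. Centring arrays on their medians gave 0.18, 0.12, 0.12 and -0.10 in the same order. The mean of both CLSPN clusters gave a log2 difference of 0.22, against 0.11 for the brighter one alone. Leaving out single arrays, CCNE2 ranged from 0.14 to 0.20, CDC6 from 0.08 to 0.12, CLSPN from 0.09 to 0.12 and CDT1 from -0.13 to -0.10. A constant sign is no sign of stability here, because the genes had been picked for a difference on these arrays.

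**Figure D2:**
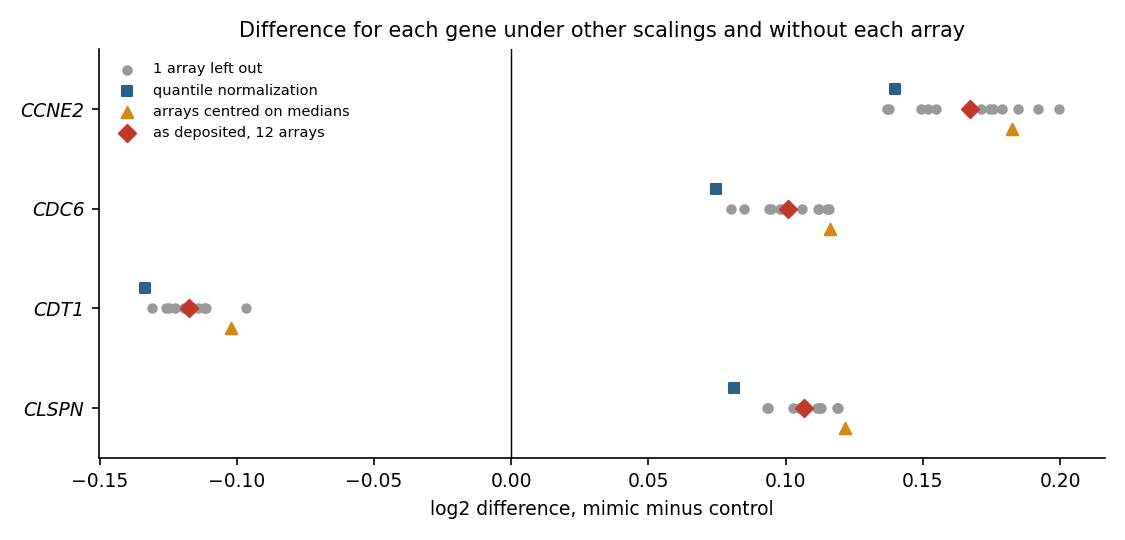
Log2 difference, mimic minus control (horizontal axis), for each of the 4 genes: as deposited (diamond), after quantile normalization (square), with arrays centred on their medians (triangle) and without each of the 12 arrays (grey points). CDT1 lies between -0.13 and -0.10 throughout, while quantile normalization gives the lowest value for CDC6 and for CLSPN.

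Partners of the 4 genes in 6 lists of replication genes were compared with limma over all 53617 clusters, and 0 of 84 measured partners passed the adjusted threshold of 0.05, against 0.0112% of all clusters. At an unadjusted p under 0.05, 11 of the 84 had higher values after the mimic (13.1%) and 1 had lower values (1.19%). Nearly all of these genes are bright, 81 of 84 lying in the brightest 25% of clusters, so that stratum is the closer background. Of its 6432 named genes, 11.0% were higher and 3.02% lower by the same measure. Over all clusters the shares were 5.36% and 5.40%. With a trend and robust prior the higher shares were 20.2% of the 84 and 15.4% of the bright named genes, and the difference between the shares was not tested. After quantile normalization 5 of 84 (5.95%) were higher, beside 7.12% of the bright named genes. The median log2 difference of the 84 was 0.04, beside 0.02 for the bright named genes and -0.01 for all clusters, and quantile normalization changed the first pair to 0.02 and -0.01.

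**Figure D3:**
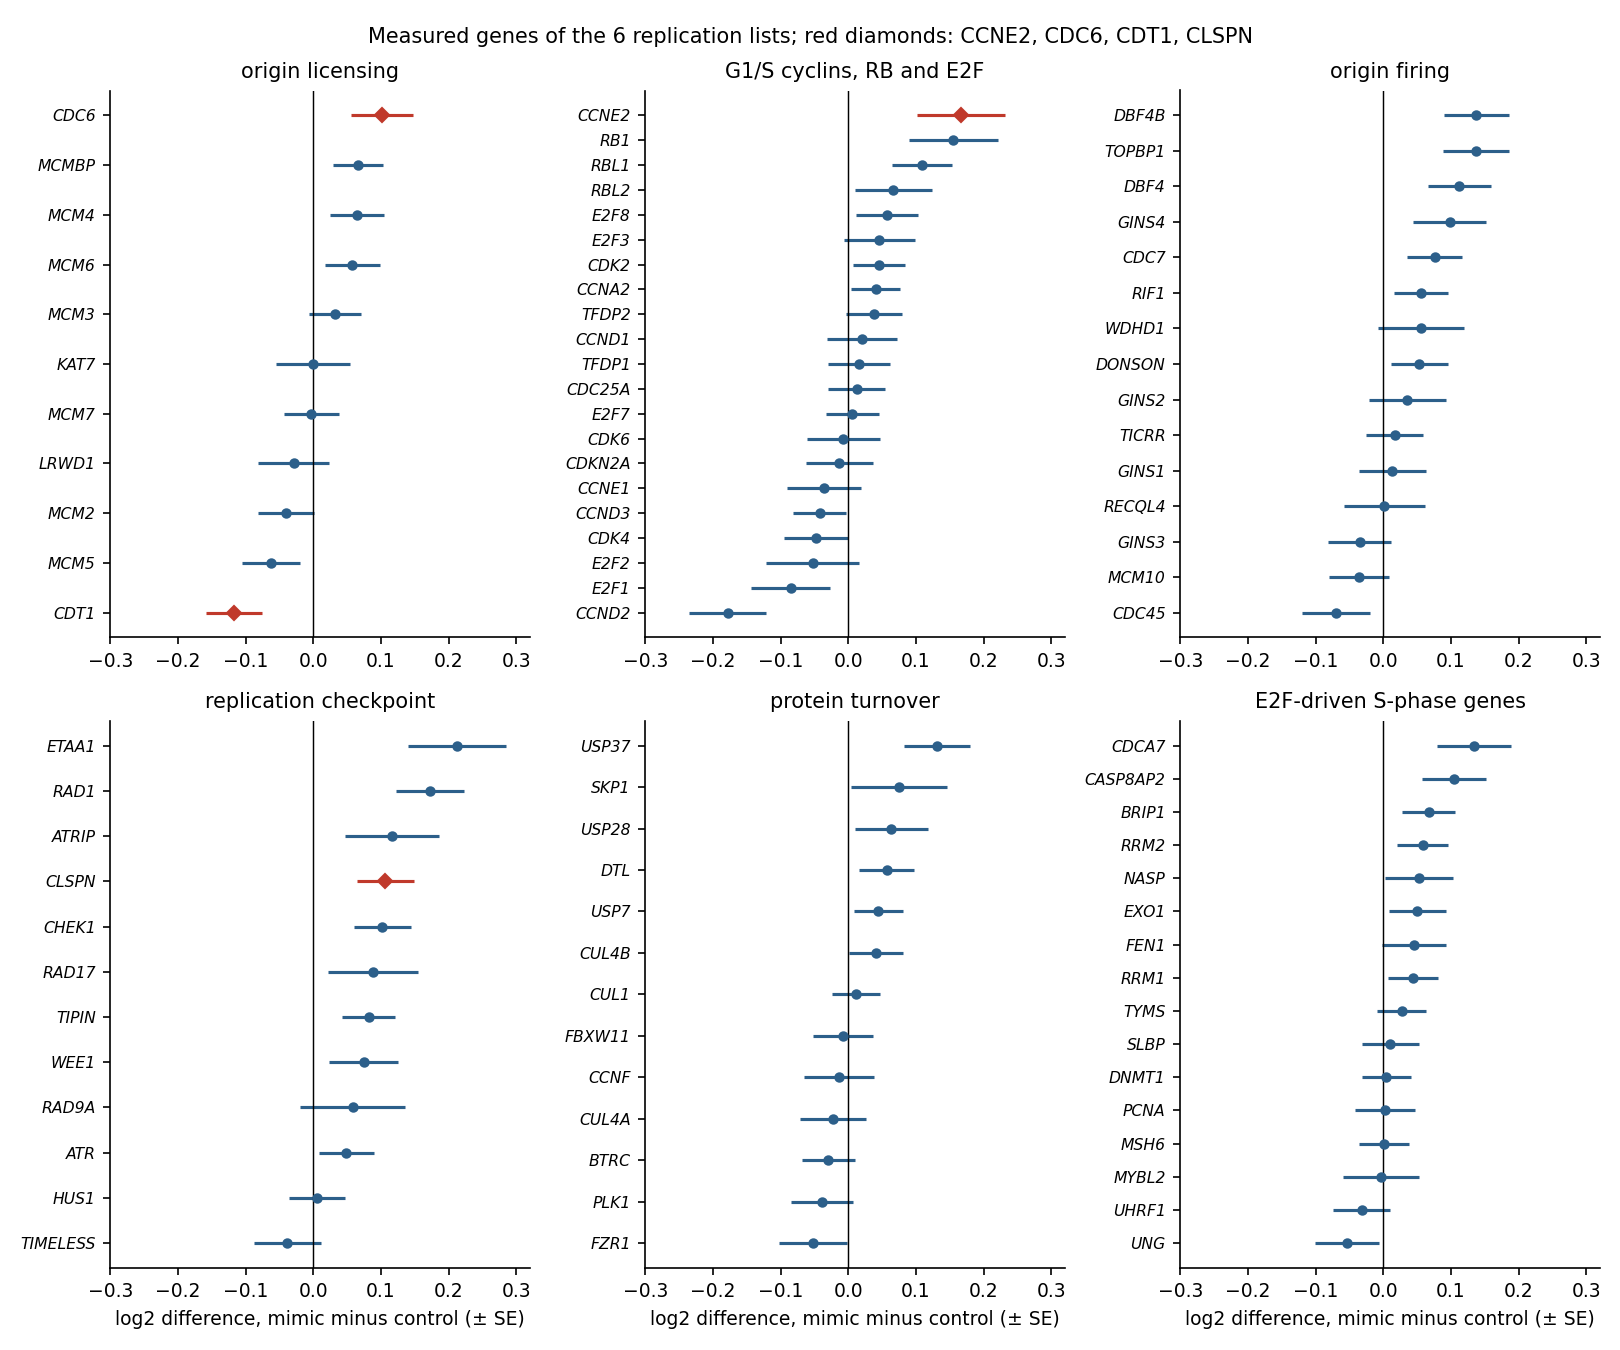
Log2 difference, mimic minus control (horizontal axis), with the standard error from limma, for each measured gene of the 6 lists; red diamonds mark CCNE2, CDC6, CDT1 and CLSPN. The MCM genes lie between -0.06 and 0.07; the positions of the 4 marked genes follow from their having been chosen on this contrast.

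In the licensing list 9 of 16 partners of CDC6 and CDT1 were measured under a gene name; ORC1 and GMNN, the geminin inhibitor of CDT1, were not among them. Of the 9, 0 had an unadjusted p under 0.05, beside 11.0% of the bright named genes higher and 3.02% lower. Means were higher in 4 and lower in 5, beside 59.9% of the bright named genes higher. The median difference of -0.001 became 0.01 with arrays centred on their medians. The 6 helicase genes MCM2 to MCM7 ranged from -0.06 for MCM5 to 0.07 for MCM4. MCM7 had a difference of -0.003, which turned to 0.01 with arrays centred on their medians. MCM4 went from 10.66 ± 0.03 to 10.73 ± 0.05 (limma adjusted p = 0.593), with no overlap between the groups. Of the bright named genes 2.85% had every mimic array above every control. With arrays centred on their medians the MCM4 groups overlapped. MCMBP, which binds MCM subunits outside the loaded helicase, had a difference of 0.07 (limma adjusted p = 0.556). The means of the helicase genes differed in both directions, and none of these differences had an unadjusted p under 0.05.

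Cyclins, kinases and the RB and E2F genes gave 20 measured partners of CCNE2. Of these, 12 had higher means, beside 59.9% of the bright named genes, and their median was 0.01. After quantile normalization 8 of 20 were higher, beside 47.5%, and the median was -0.01. CCNE1, the other cyclin E gene, went from 9.18 ± 0.08 to 9.14 ± 0.09, a difference of -0.04 with an SE of 0.06 (limma adjusted p = 0.859). Within arrays, CCNE2 minus CCNE1 shifted by 0.20 ± 0.10, with mimic arrays from 0.01 to 0.29 and controls from -0.14 to 0.19. CDK2, the kinase both cyclins activate, had a difference of 0.05 (limma adjusted p = 0.709), and E2F1, an activator E2F, of -0.09 (limma adjusted p = 0.641). CCND2, a D-type cyclin that acts earlier in G1, went from 8.67 ± 0.12 to 8.49 ± 0.05, a difference of -0.18 (limma adjusted p = 0.304), the 1 lower gene at an unadjusted p under 0.05. The RB family genes RB1 and RBL1, which restrain E2F, had differences of 0.15 and 0.11 (limma adjusted p = 0.431 and 0.406).

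Origin firing genes, which turn a licensed origin into a fork, had higher means in 12 of 15, with a median of 0.05 that was 0.03 after quantile normalization, when 9 of 15 were higher. Of the bright named genes 59.9% had higher means as deposited and 47.5% after quantile normalization. At an unadjusted p under 0.05, 3 of the 15 were higher, beside 11.0% of the bright named genes. DBF4, the activating subunit of the kinase CDC7, had a difference of 0.11 (limma adjusted p = 0.423), and its relative DBF4B of 0.14 (limma adjusted p = 0.338). TOPBP1, needed both for firing and for ATR activation, went from 8.98 ± 0.07 to 9.11 ± 0.07, also 0.14 (limma adjusted p = 0.351). In DBF4B, too, the groups did not overlap. Together with MCM4 this made 2 of 84 partners with every mimic array above every control, beside 2.85% of bright named genes. The count of such partners was 1 after quantile normalization and 0 with arrays centred on their medians.

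The checkpoint list holds the partners of CLSPN, and 10 of its 11 measured partners had higher means, with a median difference of 0.08, beside 59.9% and 0.02 for the bright named genes. After quantile normalization 9 of 11 had higher means and the median was 0.05, beside 47.5% and -0.01 for the bright named genes. At an unadjusted p under 0.05, 3 of the 11 were higher, beside 11.0% of the bright named genes. After quantile normalization 2 of the 11 were higher by that measure, beside 7.12%. RAD1, a subunit of the clamp that marks stalled forks, went from 8.41 ± 0.08 to 8.59 ± 0.07, a difference of 0.17 (limma adjusted p = 0.271). ETAA1, an activator of ATR, had the largest difference of the 6 lists, 0.21, with an SE of 0.07 (limma adjusted p = 0.330). CHEK1, the kinase that claspin presents to ATR, went from 8.63 ± 0.04 to 8.73 ± 0.06, a difference of 0.10 close to that of CLSPN (limma adjusted p = 0.422). TIPIN and TIMELESS, which travel with claspin at the fork as a pair, had differences of 0.08 and -0.04 (limma adjusted p = 0.482 and 0.821). The TIMELESS difference was smaller than its SE of 0.05, so its direction is not settled. The same holds for RAD9A (0.06, SE 0.08) and HUS1 (0.006, SE 0.04), which are counted among the 10 higher. No partner in this list passed the adjusted test, and the list as a whole was not tested.

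Genes that control the turnover of the 4 proteins had higher means in 7 of 13, beside 59.9% of the bright named genes, with a median of 0.01. After quantile normalization 6 of 13 were higher, beside 47.5%, and the median was -0.01. DTL, the receptor through which a CUL4 ligase destroys CDT1 in S phase, had a difference of 0.06 (limma adjusted p = 0.652). FBXW7, which targets cyclin E, was not measured under a gene name. The deubiquitinases USP37 and USP7 had differences of 0.13 and 0.04 (limma adjusted p = 0.361 and 0.699). Protein levels were not measured, and CDT1 and cyclin E are controlled largely by protein destruction.

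E2F-driven S-phase genes had higher means in 13 of 16, with a median of 0.04 that was 0.02 after quantile normalization, when 9 of 16 were higher. The shares of bright named genes with higher means were 59.9% and 47.5% in these scalings. CDCA7, a chromatin protein gene, had a difference of 0.13 (limma adjusted p = 0.412). CASP8AP2, a histone mRNA processing factor, had 0.10 (limma adjusted p = 0.455), and the helicase gene BRIP1 had 0.07 (limma adjusted p = 0.571). G2/M genes, set beside these lists because earlier results had shown them higher, had higher means in 16 of 19 with a median of 0.10 that was 0.08 after quantile normalization. At an unadjusted p under 0.05, 8 of those 19 were higher and 0 lower, and limma called 0 after adjustment, beside 11.0% of bright named genes higher and 3.02% lower. That count restates the results for which the list was set here. The differences of these G2/M genes ran from -0.05 to 0.20. Those of CCNE2, CDC6 and CLSPN lay within this range and that of CDT1 lay below it. Nothing is read from these positions, because both the member genes and the G2/M list were chosen with earlier results of these arrays known.

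Whether the 4 genes varied together from array to array was tested within groups, and as deposited 0 of 6 pairs passed. Deviations from the group means were correlated over the 12 arrays for the 6 pairs, with 100000 permutations of arrays within groups, two-sided, and adjustment over the 6 pairs. CCNE2 and CDC6 had Pearson r = -0.52 (permutation p = 0.0781, adjusted 0.447) and Spearman rho = -0.54 (permutation p = 0.0609, adjusted 0.292). Without the 2 arrays farthest from the CCNE2 median, r was -0.44. After quantile normalization r was -0.74 and passed the adjusted permutation test (adjusted p = 0.0337), but with arrays centred on their medians it was -0.21 (permutation test, adjusted p = 0.745). Centring brought CDC6 and CLSPN to r = 0.63 and CDC6 and CDT1 to r = 0.44, so the pair with the largest r depended on the scaling. CDC6 and CLSPN had r = 0.45 (permutation p = 0.223, adjusted 0.447) and rho = 0.51 (permutation p = 0.146, adjusted 0.292), and r = 0.54 without the 2 farthest arrays. CCNE2 and CLSPN had r = -0.39 (permutation p = 0.213, adjusted 0.447) and rho = -0.48 (permutation p = 0.123, adjusted 0.292), and r = -0.25 without the 2 farthest. The 3 pairs with CDT1 had r between -0.19 and 0.21 and rho between -0.12 and 0.11, with permutation p from 0.567 to 0.850 for r and from 0.724 to 0.927 for rho, all adjusted values being at least 0.796. Without the 2 farthest arrays their r ranged from -0.47 to 0.39. In array order, CCNE2 was lowest in the controls where CDC6 was highest, replicates 1 and 2.

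**Figure D4:**
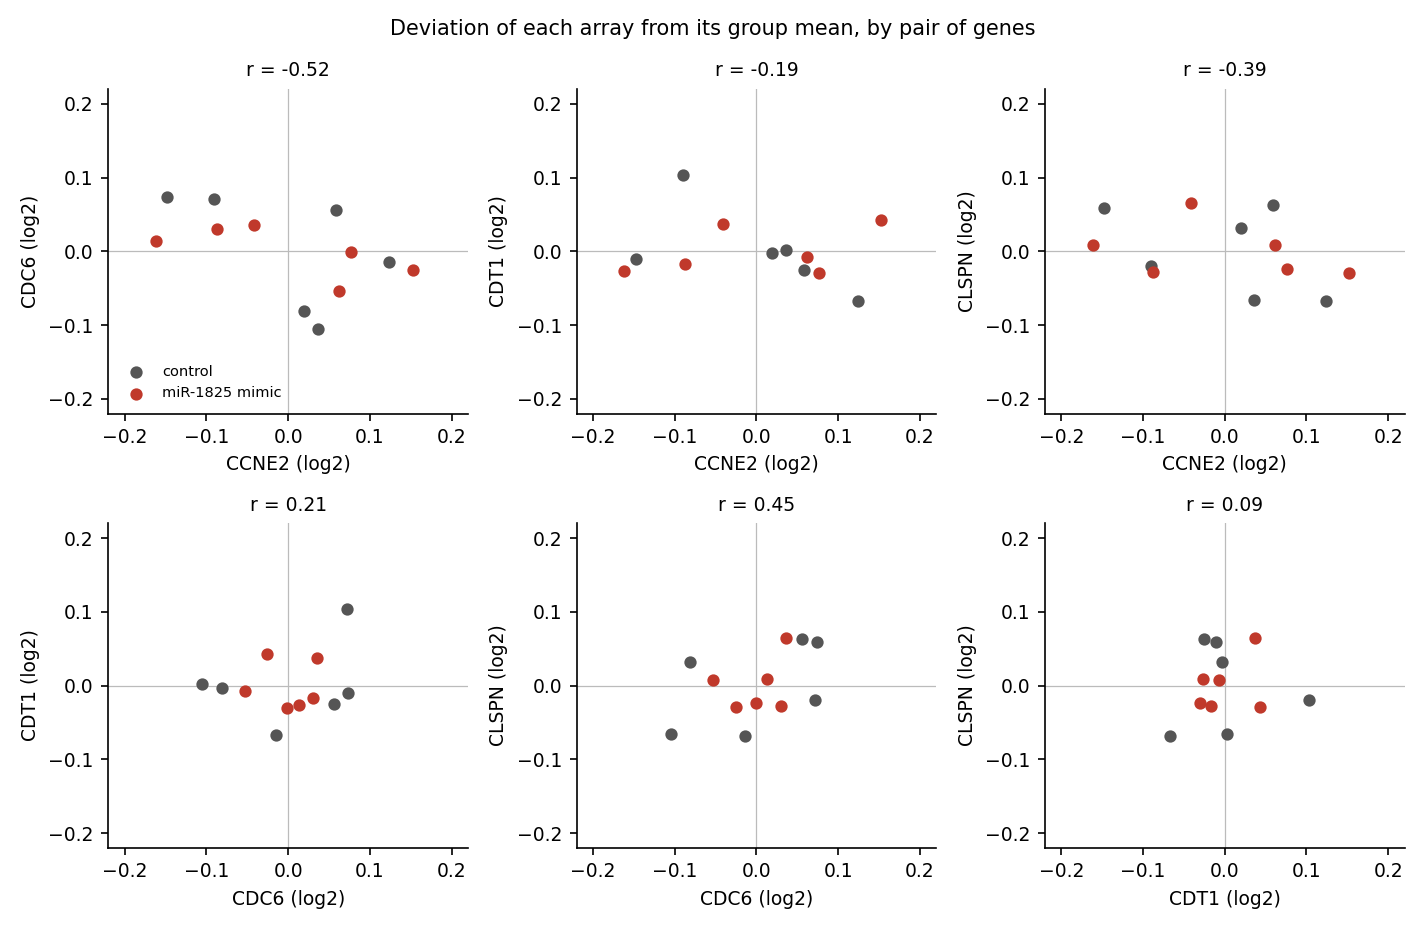
Deviation of each array from its group mean on the log2 scale, for each of the 6 pairs of genes, controls in grey and miR-1825 mimic in red, with Pearson r over the 12 arrays above each panel. CCNE2 and CDC6 run in opposite directions (r = -0.52) and CDC6 and CLSPN in the same direction (r = 0.45); neither passed the adjusted permutation test.

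The genes whose deviations were most like those of each gene were sought among 10132 named genes, those with a mean no lower than the median cluster, leaving out uncharacterised LOC symbols and symbols of microRNA, small RNA and LINC genes. For CDC6 they were ANKS1A, CCDC117 and ZFP30 (r = 0.93, 0.92 and 0.91 over 12 arrays), and for CLSPN they were MFAP3L, PRR3 and MAGOHB (r = 0.94, 0.90 and 0.87). CCNE2 was most like MMUT, HS6ST2 and TLR3 (r = 0.89, 0.87 and 0.86), and CDT1 most like PMEL, STAT5B and LASP1 (r = 0.88, 0.88 and 0.87). Such values are usual in a search of this size, since the highest r of a gene with any other had a median of 0.91 over the 10132 genes. None of the other 3 replication genes was among the 3 nearest of any of the 4. This follows from their pair values as deposited, of which the highest was r = 0.45.

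Pairs of arrays correlated closely, with values from 0.990 to 0.994 within groups and from 0.988 to 0.993 between groups, and array medians from 4.44 to 4.51. Of 7 genes fixed as marks of HEK293 identity 4 were measured under a name (PAX2, VIM, KRT8 and KRT18), and all 4 had means above the median of all clusters. Their summed level, as a mean over the 4, was 7.36 to 7.54 in controls and 7.22 to 7.45 in mimic arrays. The 3 measured leukocyte markers (CD14, LYZ and CD53) lay below the median of all clusters, with a mean level of 3.25 to 3.65 in controls and 3.31 to 3.47 in mimic arrays. For 2 fibroblast markers (DCN and LUM) the ranges were 4.09 to 4.27 and 4.10 to 4.30. For 4 markers of epithelial cancer lines (EPCAM, CLDN7, ESRP1 and GRHL2) they were 5.07 to 5.22 and 5.07 to 5.16. Of these other markers LUM, EPCAM and CLDN7 had means above the median of all clusters, at 5.71, 7.95 and 5.35. The part of these in the differences above was not tested.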

How the data were processed

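Values of 12 Human Gene 2.0 ST arrays were used as the authors deposited them. The authors' deposited values were treated as log2 expression, made by them before deposit, given a range of 1.62 to 14.4. Per the submitters' processing notes the tool was Affymetrix Expression Console; version, background correction and normalization are not given in the sources used. The number of arrays limits the precision. Of 53617 clusters, 16098 had 1 gene symbol in the platform annotation, 0 had several and 37519 were unnamed here; all 16098 matched RefSeq identifiers and 0 symbols changed.

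The members and lists were chosen with earlier results of these data known. limma 3.58.1 (R 4.3.3; lmFit, eBayes, no trend, no block) was fitted to all clusters, mimic minus control, with Benjamini-Hochberg adjustment, after being tested on simulated data. Each gene is represented by its brightest cluster. The text names the 4 genes, up to 3 partners per list with the smallest p, fixed direct partners, and the 3 genes most alike. Standard errors of the 4 genes use the pooled SD of both groups. Promoter words were widened from an ending in CGC to CGC or CGG after the sequences had been seen. Alternatives were other scalings, filters on dim clusters, a trend and robust prior, a replicate block and leaving out each array.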

Additional observations from a re-analysis of the deposited data

Results flagged for a closer look

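Extreme arrays were looked for in 32 clusters, separately among the 6 controls and the 6 mimic arrays, which makes 64 groups. In 5 groups an extreme array was set well apart; by chance about 1 group in 20 would show this. The dimmer CLSPN cluster was highest among controls in replicate 3, at 4.95, against 4.28 to 4.44 in the other 5. CCNE1 was highest among controls in replicate 4, at 9.34, against 9.11 to 9.17. Among mimic arrays, MCM4 was highest in replicate 3, at 10.83, against 10.69 to 10.74. DBF4 was lowest in mimic replicate 5, at 8.81, against 8.91 to 8.96, and TOPBP1 was lowest in mimic replicate 4, at 8.98, against 9.11 to 9.19. None of the member clusters of CCNE2, CDC6, CDT1 and CLSPN used in the comparison stood apart in either group.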

How the results depend on the processing

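The count of 0 replication partners past the adjusted limma threshold held in every fit run. The 11 partners higher at an unadjusted p under 0.05 became 5 after quantile normalization, 17 in the brightest 25% of clusters, 17 with a trend and robust prior, 7 with a replicate block (beside 7.12%, 15.4%, 15.4% and 7.77% of the bright named genes in these fits), and 6 to 11 without single arrays, the 6 being without mimic replicate 1; the count lower was 1 in each. Same-numbered arrays deviated from their group means with correlations from -0.11 to 0.08, so the numbers were not taken to pair samples. Each replicate number holds a control and a mimic array, so a replicate block cannot change a difference of means. The 4 differences with a replicate block were therefore the same by design (0.17, 0.10, -0.12 and 0.11 for CCNE2, CDC6, CDT1 and CLSPN). The mean of both CLSPN clusters gave 0.22. The r of CCNE2 and CDC6 was -0.74 after quantile normalization and -0.21 with arrays centred on their medians, and the cause was not tested. The r of CCNE2 and CDT1 was 0.065 with arrays centred on their medians and ranged from -0.42 to 0.054 without single arrays. Without single arrays CDC6 and CDT1 ranged from -0.18 to 0.29 and CDT1 and CLSPN from -0.20 to 0.33, with signs turned without control replicate 2, and without control replicate 3 or mimic replicate 2. Differences of the 4 genes as deposited were 0.10 to 0.17 log2 units in size, and background signal was not known.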
